A study of Morella rubra with 12 samples.

Results

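A set of 134 genes whose transcripts rose in both steps of fruit ripening was examined in Chinese bayberry (Morella rubra), out of 119701 assembled genes in all. The genes were chosen on the deposited FPKM (fragments on a gene, scaled by the gene's length and by the fragments of the library). With 1 added to each group mean, a member had to reach at least 21 in ripe pink-white fruits, rise at least 2-fold in each step and lie above 0.5 and below 2 times that level in ripe red fruits. In each step the lowest library of the later stage also had to exceed the highest library of the earlier one. These values, from all 4 groups of the study, chose the members, so the rises and the limits on the red fruits are given as a description and not as findings. The files do not pair gene IDs with names, so the members are known by ID only. What they encode, whether anthocyanin, sugar or cell wall genes are among them, and whether fruit markers are present were not analysed here, and no sequences are shown.

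The study sequenced RNA of fruits in 12 libraries. The strain Baidongkui with pink-white fruits (BDK, colour label pink) was sampled at 55, 70 and 85 days after flowering, called stages 1, 2 and 3 in the labels. The red-fruited cultivar Dongkui (DK, colour label black) was sampled at 85 days only, so no course of ripening exists for it. Each of the 4 groups has 3 libraries, and no treatment or transgene is named for any of them. Whether the 3 come from separate trees or fruits is not stated, so the spread given here may be technical.

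The bayberry fruit is a stone fruit whose flesh consists of juice-filled outgrowths of the fruit wall. As such a fruit ripens its cells enlarge, acids fall, sugars accumulate in the vacuole, walls soften and, in coloured cultivars, anthocyanins are made by the flavonoid pathway and stored in the vacuole. In bulk fruit RNA, more RNA per cell and more cells of a type cannot be told apart.

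The libraries listed between 32084 and 48737 genes above 0 and summed to between 817744 and 1219278 FPKM. The sums followed the stage. They were 1032999 to 1219278 in BDK at 55 days, 1005812 to 1032727 at 70 days, 817744 to 882385 at 85 days and 842518 to 922706 in DK. The files used here give FPKM and no counts, and how many fragments each library holds is unknown. The spacing of low values gave relative depths that ran from 0.851 to 1.19 around the average library. A split crosses the groups: 876 genes were above 0 in all BDK libraries of 55 days, replicate 1 of 70 days and replicates 1 and 2 of 85 days (the first set) and at 0 in the other 6 libraries (the second set, with all DK libraries). The next most frequent pattern of 6 libraries, the reverse of this one aside, held 80 genes. What the split stems from was not tested.

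Together the members' share of the fruit's transcripts went up at each stage. They made up 0.374% ± 0.031 of the summed FPKM in BDK at 55 days, 1.69% ± 0.031 at 70 days and 6.32% ± 0.416 at 85 days (SD, n = 3). In ripe DK their share was 5.36% ± 0.301. Single libraries lay at 0.351% to 0.409%, 1.66% to 1.71%, 5.86% to 6.68% and 5.05% to 5.65% in this order, so no 2 groups overlapped, ripe DK and ripe BDK included.

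**Figure D1:**
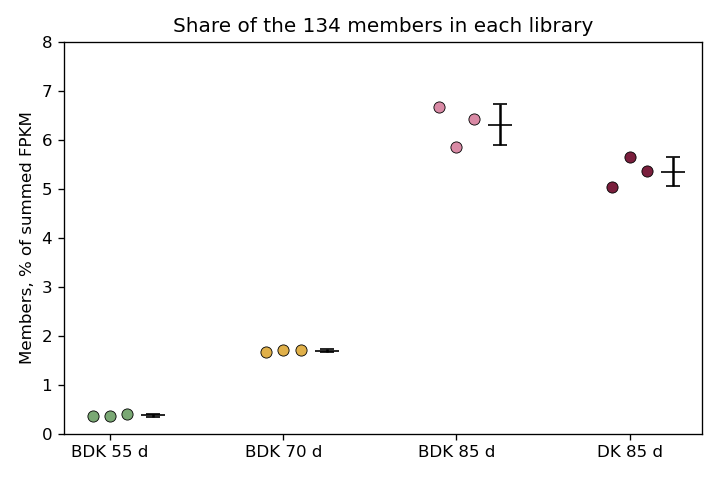
Percent of each library's summed FPKM held by the 134 members (y axis, linear from 0) in the 4 groups (x axis). Points are libraries and the bars beside them give the mean ± SD of 3 libraries. The share goes from under 0.41% at 55 days to over 5.8% in ripe BDK, and the 3 DK libraries lie just below the ripe BDK libraries.

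A typical member was a low transcript in young fruit and an abundant one in ripe fruit. The median of the members' mean levels was 5.74 FPKM at 55 days, 34.3 at 70 days, 93.0 at 85 days and 74.7 in DK. Ranked among all genes by mean FPKM, the median member stood at place 16377.5 at 55 days, 4081.5 at 70 days, 1492 at 85 days and 1851 in DK. Of the 100 most abundant genes, 1 was a member at 55 days, 5 at 70 days, 14 at 85 days and 12 in DK. Of the 1000 most abundant, 7, 23, 50 and 45 were.

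**Figure D2:**
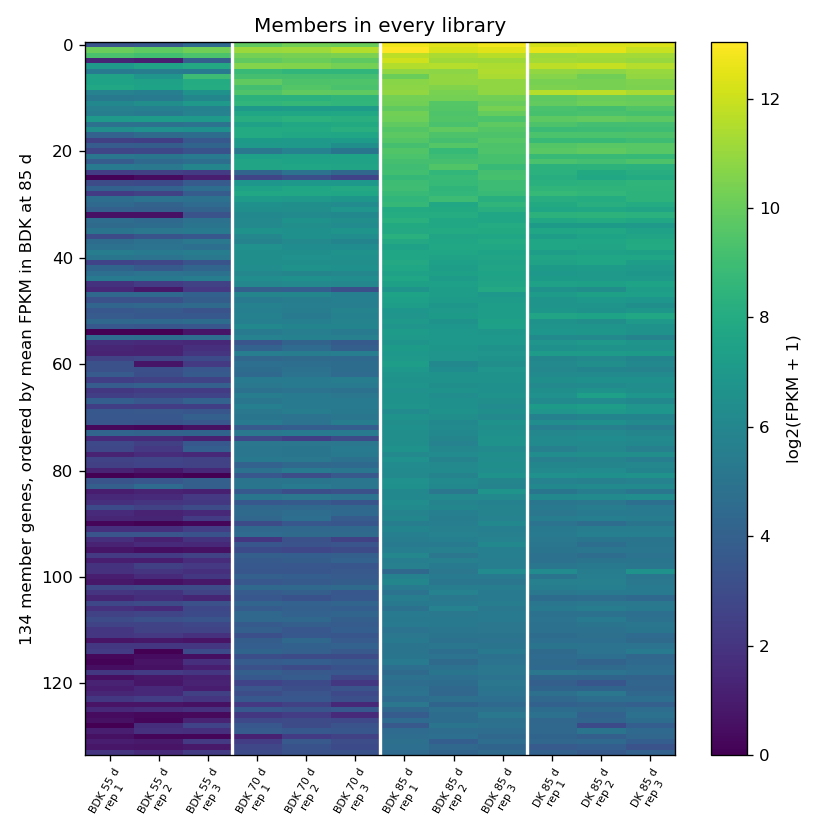
Heat map of all 134 members (rows, ordered by mean FPKM in BDK at 85 days) in all 12 libraries (columns, grouped by sample group), with colour giving log2(FPKM + 1). Both steps are visible for nearly every row, and the ripe DK columns resemble the ripe BDK columns.

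The members spanned a wide range of abundance when ripe. At 85 days 11 had a mean of at least 1000 FPKM, 53 between 100 and 1000, and 70 less than 100. The 11 highest held 59.4% of the members' summed FPKM at that stage, the 53 in between 34.0% and the 70 lowest 6.62%. The 5 highest at 85 days already held 44.2% of the members' FPKM at 55 days, against 39.9% at 85 days and 38.8% in DK, so the summed rise did not rest on these 5 alone. They were unlike at 55 days, with means of 1037 FPKM (c56915_g1), 606 (c52296_g1), 177 (c50542_g2), 14.4 (c54611_g1) and 5.71 (c42284_g1). The median first step was 7.23-fold among the 11, 4.39-fold among the 53 and 3.45-fold among the 70, while the median second step was 2.66-fold, 2.92-fold and 2.67-fold. The 1 added to each mean damps the first step most in genes that are low at 55 days. Its part in these class medians was not tested.

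The most abundant member in ripe BDK was c54611_g1. It was at 9.90, 10.98 and 22.3 FPKM in the 3 libraries of 55 days, 922, 1230.3 and 1113 at 70 days, 6851, 5528 and 6766 at 85 days, and 4603, 4922.5 and 5094 in DK. No libraries overlapped between the groups, and each DK library lay between the 70-day and the 85-day libraries of BDK. The fitted rise on the log2(FPKM + 1) scale was 6.32 ± 0.26 in the first step and 2.68 ± 0.26 in the second (SE).

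The second most abundant, c56915_g1, behaved differently in that it was already plentiful in young fruit. Its levels were 1048, 878 and 1184 FPKM at 55 days, 2137, 2255 and 2910.0 at 70 days, 8337, 4867 and 5466 at 85 days, and 5860.5, 5837 and 3941 in DK. It was the only member among the 100 most abundant genes at 55 days. Its 2 steps were of like size, 2.35-fold and 2.56-fold, and its DK libraries overlapped the ripe BDK libraries.

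The largest net change was that of c42284_g1, 443-fold between the means plus 1. It was at 1.55, 1.13 and 14.4 FPKM at 55 days, 934, 1089 and 903 at 70 days, 4280.4, 2330.1 and 2308 at 85 days, and 2361, 2317 and 2060 in DK. Replicate 3 of 55 days and replicate 1 of 85 days stood well above their group, so the size of its fold rests on single libraries. The next largest net change was the 415-fold rise of c54611_g1.

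The young-fruit end of the set was close to 0 for a few genes. The mean at 55 days was under 1 FPKM for 16 members, with a median of 31.3 FPKM when ripe. At 55 days 4 members (c35565_g1, c50453_g1, c54662_g1 and c56550_g13, singled out after their values were seen) were listed at 0 in 1 or 2 libraries, and 0 members in all 3. Gene c54662_g1 was at 0, 0 and 0.69 FPKM at 55 days, 41.8, 46.6 and 42.1 at 70 days, 143, 121 and 117 at 85 days, and 114, 119 and 100.3 in DK. It was thus nearly silent in the young fruit and steady within each later group. Net rises of at least 16-fold were made by 55 members, and of at least 64-fold by 9.

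The steps differed in size and in how they varied. The first step, from 55 to 70 days, ran from 2.01-fold to 146-fold with a median of 4.02-fold and quartiles of 2.74-fold and 6.45-fold. The second, from 70 to 85 days, ran from 2.00-fold to 68.0-fold with a median of 2.77-fold and quartiles of 2.31-fold and 3.83-fold. Over the 6107 genes that reached the same minimum level in ripe BDK, the medians were 1.13-fold and 1.04-fold. A rise of at least 4-fold was made in the first step by 68 members, in the second by 30, in both by 18 and in neither by 54.

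Measured in FPKM instead of folds, the second step was the larger for all 134 members. It made up 51.8% to 98.8% of a member's gain from 55 to 85 days, with a median of 71.6%. This follows from the choice, since a gene that rises 2-fold in the second step gains more there than its whole level before. As a fold, the first step was larger in 87 members and the second in 47, and the median of the second minus the first was -0.33 on the log2 scale. This balance depended on the value added to the means. With 0.1 added the first step was larger in 98 members, with a median of -0.49, and with 5 added in 68 members, with a median of -0.0084. Replicate 3 of 55 days, the library with the most genes above 0 and the largest summed FPKM, was the highest of its group for 88 members. The share over all genes was not computed, so nothing on the members is read from that count. Without this library the first step was larger in 94 members, with a median of -0.53.

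**Figure D3:**
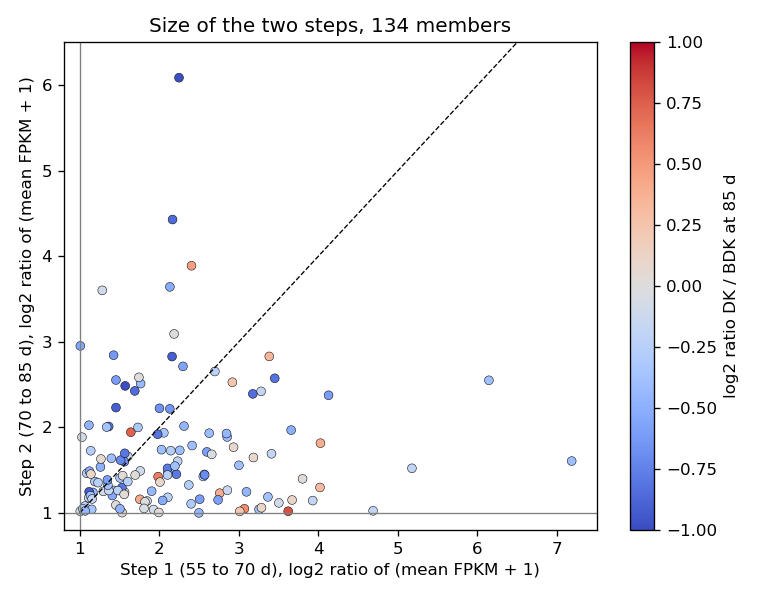
Log2 ratio of (mean FPKM + 1) in the second step (y axis, 70 to 85 days) against the first (x axis, 55 to 70 days) for each member, coloured by the log2 ratio of ripe DK to ripe BDK. Grey lines mark the 2-fold limits of the choice and the dashed line equal steps. Below the dashed line lie 87 members and above it 47, and most points are blue, with DK lower than BDK.

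Across all 23074 genes tested, limma's moderated linear model (Benjamini-Hochberg adjusted p below 0.05) called 24.7% higher in the first step, 15.7% in the second and 25.1% over both. All 134 members were called in the first and over both, and 131 in the second. Since these contrasts chose the members, nothing is read from the counts. The 3 members not called in the second step, named after their values were seen, were c42284_g1, c50453_g1 and c56550_g13. Each had a library at 55 or 85 days far from the others of its group, and the model estimates the spread from all 12 libraries. In a model of the 70-day and 85-day BDK libraries alone, all 134 members were called (20.8% of all genes then tested). Gene c50453_g1 was at 11.4, 31.2 and 28.4 FPKM at 85 days against 10.7, 7.16 and 9.25 at 70 days, so replicate 1 of 85 days barely passed the highest library of 70 days.

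The difference between the steps was fitted in the same model. The second step was called larger in 14 members (10.4%; 17.2% of all genes tested) and smaller in 41 (30.6%; 19.7%). Over all genes tested these calls also take in genes that fall, dip or peak at 70 days. Those shares thus do not count larger or smaller rises alone. The libraries are those that chose the members, so these counts too are a description. Without replicate 1 of 70 days the 14 became 5 (15.3% of all genes tested) and without its replicate 3 they became 8 (13.1%). Within the first set, which has 1 library of 70 days, the second step was called larger in 4 members (2.62% of all genes tested) and smaller in 3 (2.96%), so calls fell over all genes there.

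At the early end, among the 64 members of at least 100 FPKM when ripe, c45349_g1 made 82.1% of its log2 rise in the first step. It was at 4.06, 5.02 and 12.9 FPKM at 55 days, 214, 216 and 212 at 70 days, 456, 394 and 458 at 85 days, and 422, 388 and 343 in DK. Its 70-day libraries agreed within 2.03 FPKM (SD), and its DK libraries overlapped those of ripe BDK. Gene c42284_g1, described above, followed with 81.7%.

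At the late end c52516_g1 made 27.0% of its log2 rise in the first step. It was at 0.11, 0.30 and 1.16 FPKM at 55 days, 5.54, 8.12 and 5.06 at 70 days, 410.1, 452 and 612 at 85 days, and 273, 226 and 246 in DK. It rose 4.75-fold to a mean of 6.24 FPKM at 70 days and 68.0-fold afterwards, and all its DK libraries lay below all ripe BDK libraries. Gene c52939_g5 was the next, with 32.9%. Its levels were 4.13, 4.57 and 3.99 FPKM at 55 days, 18.1, 29.7 and 19.7 at 70 days, 549.9, 395 and 572 at 85 days, and 320.5, 236 and 278 in DK, again with no overlap between the ripe groups.

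**Figure D4:**
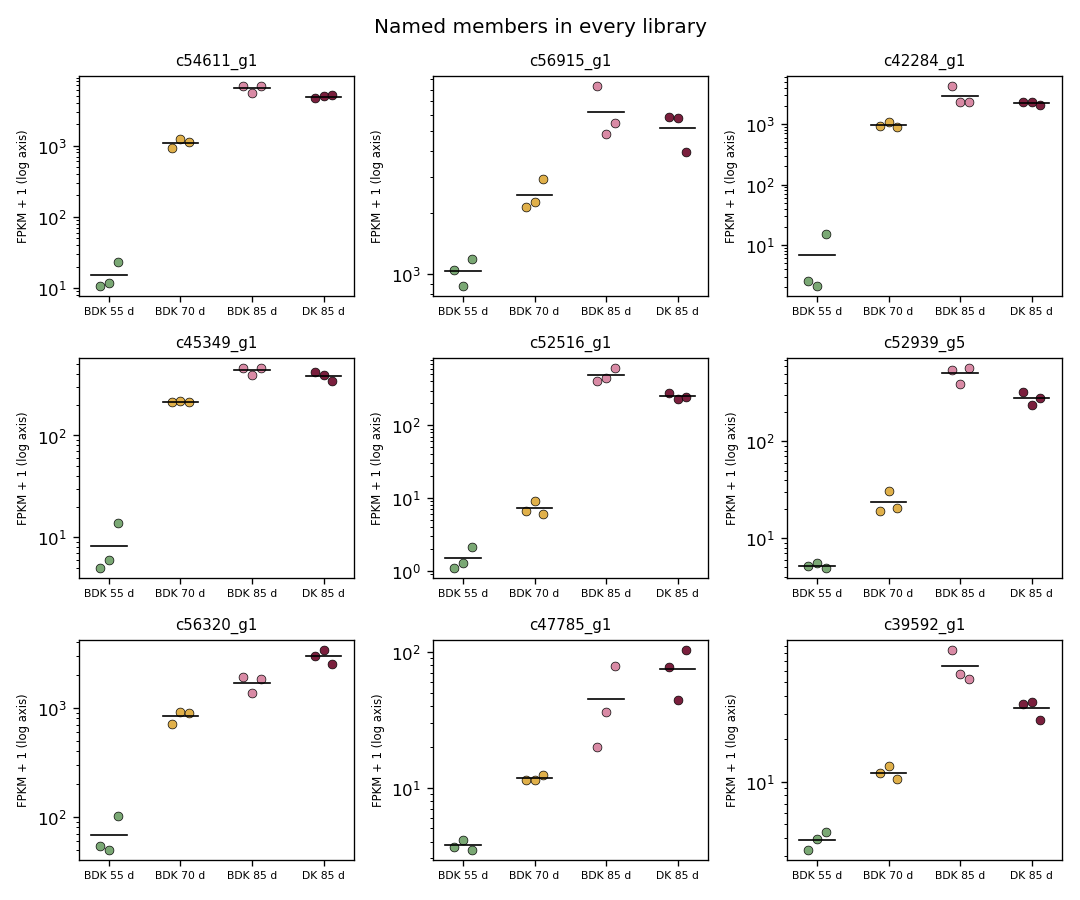
FPKM + 1 (y axes, log scale, each with its own range) of 9 members named by the selection rules, in the 4 groups (x axes). Points are libraries and lines the group means. The late risers c52516_g1 and c52939_g5 are still far below their ripe levels at 70 days, and c56320_g1 is highest in DK.

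Most members had a slightly lower mean in ripe red fruits than in ripe pink-white fruits. The DK mean was below the BDK mean for 105 members (78.4%) and above it for 29. The median ratio of DK to BDK was 0.799, with quartiles of 0.698 and 0.949. On the log2 scale the median was -0.32, and each DK library taken alone lay between -0.34 and -0.29 from the BDK mean. The choice limited each ratio to between 0.5 and 2 and named no direction. It did ask for a 2-fold second step and for no overlap with 70 days in ripe BDK, and for neither in DK. Genes whose ripe BDK values lie high by spread are thus favoured, which lowers the ratio. Its part in the lower DK levels was not tested, so no test is drawn from this contrast. Of the 6107 genes at the same minimum level, 54.3% were lower in DK, with a median ratio of 0.982, and of all genes tested 48.3%. Those genes were not chosen on their steps, so the shares are not like for like. Leaving out any 1 ripe library, with the same members, kept the number of lower members between 104 and 111.

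Library by library, all DK values lay below all BDK values of 85 days for 65 members (48.5%; 12% of all genes tested). All lay above for 7 members (5.22%; 12.2%), and 62 overlapped. The ratios of the 65 ran from 0.505 to 0.910, and those of the 7 from 1.24 to 1.74. Limma called 23 members lower in DK (17.2%; 3.24% of all genes tested) and 2 higher (1.49%; 3.27%), and nothing is read from these counts because the contrast entered the choice. The number called lower moved with single libraries, among the members and over all genes alike. Without replicate 1 of ripe BDK the 23 became 9 (1.66% of all genes tested), without its replicate 2 they became 32 (4.36%) and without its replicate 3 they became 13 (2.6%). Without replicates 1, 2 and 3 of DK in turn they became 9, 11 and 9 (1.28%, 1.33% and 1.53%). With a term for the library set they became 13 (1.12%), and within the second set, where ripe BDK has 1 library, 14 (1.11%). In that set alone 110 members had a lower mean in DK, with a median ratio of 0.793. Leaving the filter on low genes out gave 8 lower (0.152% of all genes then tested) and 0 higher (0.188%). The 2 called higher became 1 without replicate 1 or 3 of ripe BDK (1.62% and 2.15%), 0 without replicate 1 of DK (1.36%) and 1 without its replicate 2 or 3 (1.48% and 1.86%). Without replicate 3 of BDK at 55 days they became 5 (3.96%).

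**Figure D5:**
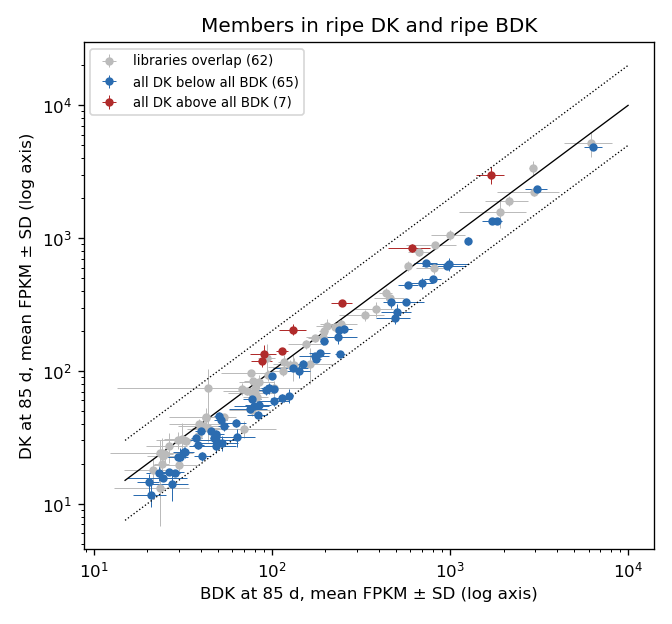
Mean FPKM in ripe DK (y axis) against ripe BDK (x axis) for the 134 members, on log axes, with SD over 3 libraries as bars. The solid line marks equal levels and the dotted lines ratios of 0.5 and 2. The 65 members in blue have all DK libraries below all BDK libraries and the 7 in red all above.

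The member with the highest ratio was c56320_g1, at 1.74. It was at 53.3, 49.0 and 99.7 FPKM at 55 days, 705, 919 and 899 at 70 days, 1910.1, 1354 and 1853 at 85 days, and 3006, 3396 and 2530.1 in DK. It was higher in every DK library than in any BDK library of any stage. Gene c47785_g1 followed at 1.67, but its libraries overlapped. It was at 19.1, 35.0 and 77.8 FPKM in ripe BDK and 76.1, 43.4 and 102 in DK, and had the widest spread of all members in ripe BDK, a coefficient of variation of 69.1%. Within the second set of libraries its fitted log2 difference, 0.86 with all libraries, was -0.20.

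The 2 members called higher, named after their values were seen, were c42882_g1 and c49421_g1. Gene c42882_g1 was at 108, 136 and 153 FPKM in ripe BDK and 197, 189.8 and 227 in DK, and c49421_g1 at 105, 90.3 and 75.8 in ripe BDK and 135, 155 and 112 in DK. Their fitted log2 differences were 0.62 ± 0.13 and 0.54 ± 0.13 (SE). Both were without overlap, by a small margin for c49421_g1.

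The lowest ratios were those of c39592_g1, at 0.505, and the late riser c52516_g1, at 0.507. Gene c39592_g1 was at 2.33, 2.95 and 3.39 FPKM at 55 days, 10.5, 11.8 and 9.38 at 70 days, 83.2, 56.0 and 52.1 at 85 days, and 33.9, 35.1 and 26.1 in DK. Its 3 DK libraries lay between the 70-day and the 85-day libraries of BDK. The fitted log2 differences were -0.99 ± 0.18 for c39592_g1 and -0.98 ± 0.25 for c52516_g1 (SE).

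The second step and the ripe comparison both use the ripe BDK libraries, and their values are set side by side here. The 47 members with the larger second step had a median second step of 3.70-fold and a median DK to BDK ratio of 0.729, with 41 lower in DK. The 87 with the larger first step had a median second step of 2.58-fold and a median ratio of 0.837, with 64 lower. No relation is drawn from values that share libraries.

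Against BDK at 70 days, ripe DK held 2.36 times as much of the median member, where ripe BDK held 2.77 times as much. All DK libraries lay above all 70-day libraries for 133 members (99.3%; 15.5% of all genes tested), and above all 55-day libraries for 134 (22% of all genes tested). The limits of the choice nearly fix both counts, so nothing is read from them. For 65 members (48.5%; 2.61% of all genes tested) every DK library lay between the 70-day and the ripe BDK libraries. They are the same 65 whose DK libraries all lay below ripe BDK. The choice largely sets the lower side, and the upper side uses the ripe BDK values that chose the members. It also put ripe BDK above 70 days in every member but not in every gene tested, so nothing is read from these shares. The exception at 70 days was c50453_g1, with 19.2, 6.49 and 14.1 FPKM in DK. Limma called 129 members higher in DK than at 70 days, against 14.3% of all genes tested, a direction that the limits of the choice nearly fix.

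The limits of the choice fell in a dense part of the data on some sides and a thin part on others. Of the 6107 genes at the minimum level, 870 met the first-step limits, 422 the second-step limits and 146 both. The next-lower gene on the level had 20.9 against 21.3 for the lowest member. On the first step the values on either side were 1.99 and 2.01, and on the second 1.99 and 2.00. The second-step limit alone kept out 232 genes, the first-step limit alone 72, the level alone 34 and overlapping libraries alone 19. The set is thus the upper end of a continuous range of steps. With 1.5-fold in each step it would hold 342 genes, and with 3-fold 42.

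The limit on DK kept out only 12 genes that met all others. Of these, 11 had a ratio of 0.303 to 0.479, where the lowest member has 0.505. The other, c47647_g1, was 8.03 times higher in DK, where the highest member has 1.74, and was named after its values were seen. It was at 0.07, 0.32 and 0.08 FPKM at 55 days, 0.54, 3.47 and 1.47 at 70 days, 352, 183 and 189.6 in ripe BDK, and 2140.3, 2118 and 1577 in DK. It was thus nearly absent until 70 days in BDK and highest by far in the red fruits.

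The spread of the members between the libraries of a group was widest at 55 days. The median coefficient of variation was 20.3% at 55 days, 9.72% at 70 days, 14.8% in ripe BDK and 8.66% in DK. Over the 6107 genes that reached the same minimum level it was 9.88% in ripe BDK, below that of the members. That value was computed for ripe BDK only. The members' levels were lowest at 55 days, so the wider spread there is not read as a trait of the members. The steadiest member in ripe BDK was c56973_g2, at 67.4, 68.4 and 69.1 FPKM, a coefficient of variation of 1.23%. In ripe BDK replicate 1 was the highest library for 64 members and replicate 2 the lowest for 65. The median member of replicate 2 lay 0.15 below the other libraries of its group on the log2 scale, and that of replicate 3 of 55 days 0.28 above. For these counts and shifts the values over all genes were not computed, so they are not read as traits of the members.

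The size of the steps can also be given inside each set of libraries. Their direction there is fixed by the choice, which let no libraries of successive stages overlap. The 2-fold limit on group means of the same libraries also bounds their size from below, so nothing on the library split is read from them. The median first step was 3.99-fold within the first set, with a lowest of 1.29-fold. The median second step was 2.98-fold within the first set and 2.80-fold within the second, with lowest steps of 1.61-fold and 1.53-fold.

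Where the assembly split 1 cluster into several genes, shown by the part of the ID before _g, reads may have been divided among them, which makes each level uncertain. The members fell into 133 clusters. The pair in 1 cluster was c50259_g1 and c50259_g2, which ran in parallel. Gene c50259_g1 was at 2.39, 2.55 and 4.24 FPKM at 55 days, 19.5, 20.4 and 20.2 at 70 days, 56.8, 49.4 and 49.0 at 85 days, and 37.5, 45.7 and 44.2 in DK. Gene c50259_g2 was at 1.15, 1.93 and 3.28, then 14.7, 13.96 and 12.3, then 52.5, 38.3 and 39.9, and 31.1, 46.6 and 34.2 in the same order.

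For 53 members other tested genes of the same cluster exist, 121 in all. The share of these neighbours that rose at least 2-fold in the second step was above that of all genes tested. Of the 121, 15 rose at least 2-fold in the first step (12.4%; 10.9% of all genes tested), 18 in the second (14.9%; 5.81%) and 3 in both, and 19 fell at least 2-fold from 55 to 85 days. For the counts of both steps and of the fall, the share over all genes tested was not computed, so nothing is read from them.

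The members' profiles over the 12 libraries were alike by construction. The correlation of a member with the mean standardised profile of the set ran from 0.839 to 0.999 with a median of 0.982. The points share their libraries, and the value is a description. The genes most like that profile outside the set were c55912_g1 and c48080_g1, each at r = 0.998 over 12 libraries. Gene c55912_g1 was at 14.6, 16.1 and 17.7 FPKM at 55 days, 38.2, 41.9 and 40.9 at 70 days, 79.9, 69.5 and 80.9 at 85 days, and 71.6, 68.0 and 67.0 in DK. Both were kept out by the second step alone, at 1.88-fold and 1.90-fold.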

How the data were processed

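Fruit RNA was extracted with Trizol and sequenced from Illumina libraries, per the labels' protocols. Gene levels are FPKM as the authors deposited them, per the file headers, in a file for each library. Which assembler, aligner, quantifier and filters were used is not given in the sources used here. Because FPKM is relative to all fragments, a rise in abundant transcripts pulls the other values down.

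Levels, shares, ratios and the choice of members use FPKM as deposited, with 1 added to group means before ratios. For calls, FPKM was divided by trimmed-mean factors (30% of log ratios and 5% of levels trimmed at each end, over genes that reached 1 FPKM in both libraries), which ran from 0.912 to 1.12. The factors too followed the stage, at 1.086 to 1.12 at 55 days and 0.912 to 0.9675 in ripe fruits. The 23074 genes that reached 1 FPKM in 3 or more libraries were tested, among them all 134 members. The model was fitted to log2(FPKM / factor + 1) in limma 3.58.1 (R 4.3.3), with all 12 libraries and 4 groups in 1 model, with Benjamini-Hochberg adjustment over all genes tested and an adjusted p below 0.05 as a call. The procedure was also run on simulated data, with independent noise around a single mean for each gene and changes added to some genes. The simulation held neither the stage differences nor the library split of these data, so no result is drawn from it. On this scale the 1 added shrinks the folds of low genes.

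Named genes are the 2 most abundant in ripe BDK, the 2 of the largest net fold, the 2 with most and the 2 with least of the log2 rise in the first step (at least 100 FPKM when ripe), the 2 highest and the 2 lowest ratios of DK to BDK, the most and the least variable in ripe BDK, members of 1 assembly cluster and the 2 most similar other genes. The members and these rules were chosen with earlier results of these data known. Pathway lists could not be counted without gene names. Groups and replicate numbers come from the titles, days from the design text. Same-numbered libraries of different groups showed no clear common deviation. The correlation of their deviations from the group means was -0.146 to 0.173 and passed 0.1 in 1 of 18 pairs. For libraries of different numbers it was -0.214 to 0.251. With 3 libraries in each group this check is weak. No library is a copy of another: the largest share of equal values in a pair was 11.9%. Alternatives are given in the closing section.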

Additional observations from a re-analysis of the deposited data

How the results depend on the processing

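The members were chosen again, and the calls, shares and medians recomputed on the 134 members, under each alternative. Their number was 342 with a step ratio of 1.5 and 42 with 3, and 93 to 168 under the other alternatives (168 with trimmed-mean factors, 132 of them members). It was 124 to 143 when 1 library was left out, sharing 116 to 133 genes with the 134. With the replicate number as a block, the numbers called in the first and second step were the same (134 and 131), 16 members were called lower in DK and 3 higher, and the second step was called larger in 11 and smaller in 40. The check above gave no clear sign that the numbers pair the libraries. As 6 of 12 libraries correlated best with one of their own number, a pairing is not excluded.

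Calls moved over all genes tested as well, and the share of those called is given in brackets. For ripe DK against ripe BDK, the 2 members called higher (3.27%) became 0 with no filter (0.188%), 0 in a model of the ripe groups alone (1.77%), 1 with a term for the library set (1.23%) and 1 in the second set alone (1.32%). Leaving out 1 library gave 0 to 5 (1.36% to 5.15%), with 5 without replicate 3 of 55 days. The 23 members called lower (3.24%) became 8 (0.152%), 14 (1.75%), 13 (1.12%) and 14 (1.11%) in the same order of settings, and 9 to 32 with 1 library left out (1.28% to 4.36%). With a 2-fold minimum 0 were called higher and 0 lower, which the limits of the choice on the ripe ratio fix. For the difference of the steps, the 14 called larger (17.2%) became 27 with a pseudocount of 5 (18.4%), 5 with no filter (2.47%), 7 with a 2-fold minimum (10.4%) and 4 in the first set alone (2.62%), where the 41 called smaller (19.7%) became 3 (2.96%). With 1 library left out they were 5 to 17 (13.1% to 18%) and 28 to 44 (15.9% to 20.4%). Sets were found after seeing the data, and in each set alone a group with 1 library is assumed to vary like the others. The cause of these shifts was not tested.

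Without the 50 most abundant other genes in the denominator, the members' share was 0.554%, 2.34%, 7.71% and 6.46% in BDK at 55, 70 and 85 days and DK, with the same order of groups. The median balance of the steps (-0.33) was -0.29 with trimmed-mean factors, -0.49 with 0.1 added, -0.0084 with 5 added, and -0.53 to -0.25 with 1 library left out. The median ripe ratio on the log2 scale (-0.32) was -0.39 to -0.27 with 1 ripe library left out.

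Of 393 alternative values of single named genes, 368 kept direction and side of the threshold, 23 were no longer called, 1 became called and 1 reversed: c47785_g1, DK against ripe BDK, at -0.20 in the second set alone. The files give no counts, so the precision of low values, such as those at 55 days, is unknown.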
